A study of Mus musculus with 39 samples.

Results

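The 9 genes described here move circulating lipid into cells and were followed in white adipose tissue (WAT), liver and skeletal muscle: Lpl, Lmf1, Gpihbp1, Angptl4, Apoe, Vldlr, Lrp1, Cd36 and Fabp4. They were chosen by gene name, each name matched 1 gene, and they make up 9 of the 30671 genes listed in the series. Lipoprotein lipase, encoded by Lpl, hydrolyses the triglyceride of chylomicrons and very low density lipoprotein at the capillary wall. It is folded in the endoplasmic reticulum with the help of Lmf1, carried across the endothelium and held at the lumen by Gpihbp1, and inhibited by Angptl4. Apoe on remnant particles is a ligand of the receptors Vldlr and Lrp1. Fatty acids released by the lipase enter cells in part through Cd36 and are carried inside adipocytes, macrophages and endothelial cells by Fabp4. In adipose tissue the lipase feeds fat storage, and in muscle it feeds oxidation.

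The animals were C57Bl6/J mice in 3 arms. Letrozole, which blocks the conversion of androgens to oestrogens, was given prepubertally to produce a model of polycystic ovary syndrome (PCOS). At the age of 12 weeks an oral course of 6 weeks began, with roxadustat or vehicle in PCOS mice and vehicle in controls. Roxadustat stabilises hypoxia-inducible factor (HIF) by blocking the enzymes that hydroxylate it. There were 4 control vehicle, 4 PCOS vehicle and 4 PCOS roxadustat libraries of liver, the same numbers of muscle, and 4, 6 and 5 of WAT. Each library came from 1 tissue of 1 mouse, and mice are named by their number. The labels do not name the fat depot or the muscle. RNA of WAT was extracted with another kit than RNA of liver and muscle, so tissue and kit cannot be told apart. Letrozole was given to both PCOS arms, so the comparison of roxadustat with PCOS vehicle is made within the model. Roxadustat mice differ from controls in letrozole and in roxadustat, which cannot be told apart in that comparison. A difference from control under roxadustat, as written below, holds both.

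Levels are the authors' FPKM, a read density that takes account of gene length and of sequencing depth, given as mean ± SD over mice. Differences are log2(FPKM + 0.5) with the standard error (SE) of limma, each pair of arms fitted over all genes, and a gene is called at an adjusted p under 0.05. Liver libraries held 12389970 to 19350634 reads over genes, muscle libraries 14332757 to 18627919 and WAT libraries 13664558 to 19639244. All 9 genes passed the filter on low reads in every comparison. The tissues carried their own markers: 8 hepatocyte genes summed to 42405 to 66167 FPKM in liver, 9 myofibre genes to 77955 to 106516 FPKM in muscle, and 10 adipocyte genes to 5128 to 40461 FPKM in WAT. Libraries that stand apart touch several results. The adipocyte genes summed to 225 and 97.7 FPKM in the livers of control mice 789 and 801 and to 13.6 to 28.5 FPKM in the other 10 livers. In muscle they summed to 9.75 to 291 FPKM, with 3 of the 4 control muscles between 124 and 291 and roxadustat mouse 767 at 137. In WAT the highest sum, 40461 FPKM, was that of PCOS vehicle mouse 785, the WAT library with the fewest reads and the fewest genes detected. Hepatocyte genes summed to 0.891 to 104 FPKM, with a median of 2.82, in PCOS vehicle muscles. Myofibre genes summed to 0.300 to 104 FPKM, with a median of 1.62, in roxadustat livers. The part of these markers in the results below was not tested unless a value is given. In whole tissue, fewer cells of a type and less RNA per cell cannot be told apart.

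Where the genes were expressed in control mice separated the tissues clearly. Lpl, Gpihbp1, Angptl4, Cd36 and Fabp4 had their highest level in WAT, Vldlr in muscle, and Apoe, Lrp1 and Lmf1 in liver. Lpl was at 594 ± 227 FPKM in control WAT, 65.7 ± 17.7 in muscle and 5.89 ± 3.75 in liver (SD, n = 4 each), 101-fold higher in WAT than in liver and 9.04-fold higher than in muscle. Fabp4 was at 1928 ± 310, 39.1 ± 8.44 and 8.06 ± 8.67 FPKM in the same order, and Cd36 at 376 ± 48.1, 80.7 ± 13.8 and 10.9 ± 3.63. Apoe ran the other way, at 13570 ± 5363 FPKM in liver, 1124 ± 443 in WAT and 34.6 ± 8.07 in muscle. Vldlr was at 22.5 ± 2.83 FPKM in muscle, 5.77 ± 0.644 in WAT and 1.64 ± 0.573 in liver. Dividing the library size that FPKM implies by the reads recovered gave 1.26 to 1.59 in WAT, 0.776 to 0.931 in liver and 0.697 to 0.864 in muscle, so levels set across tissues carry that scaling. The authors' gene length covers 100% of the genomic span of Fabp4, introns included, 89.5% of that of Gpihbp1, 69.4% of that of Apoe and 3.35% to 43.8% of the others. A length that takes in introns lowers FPKM, which bears on levels compared between genes.

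**Figure D1:**
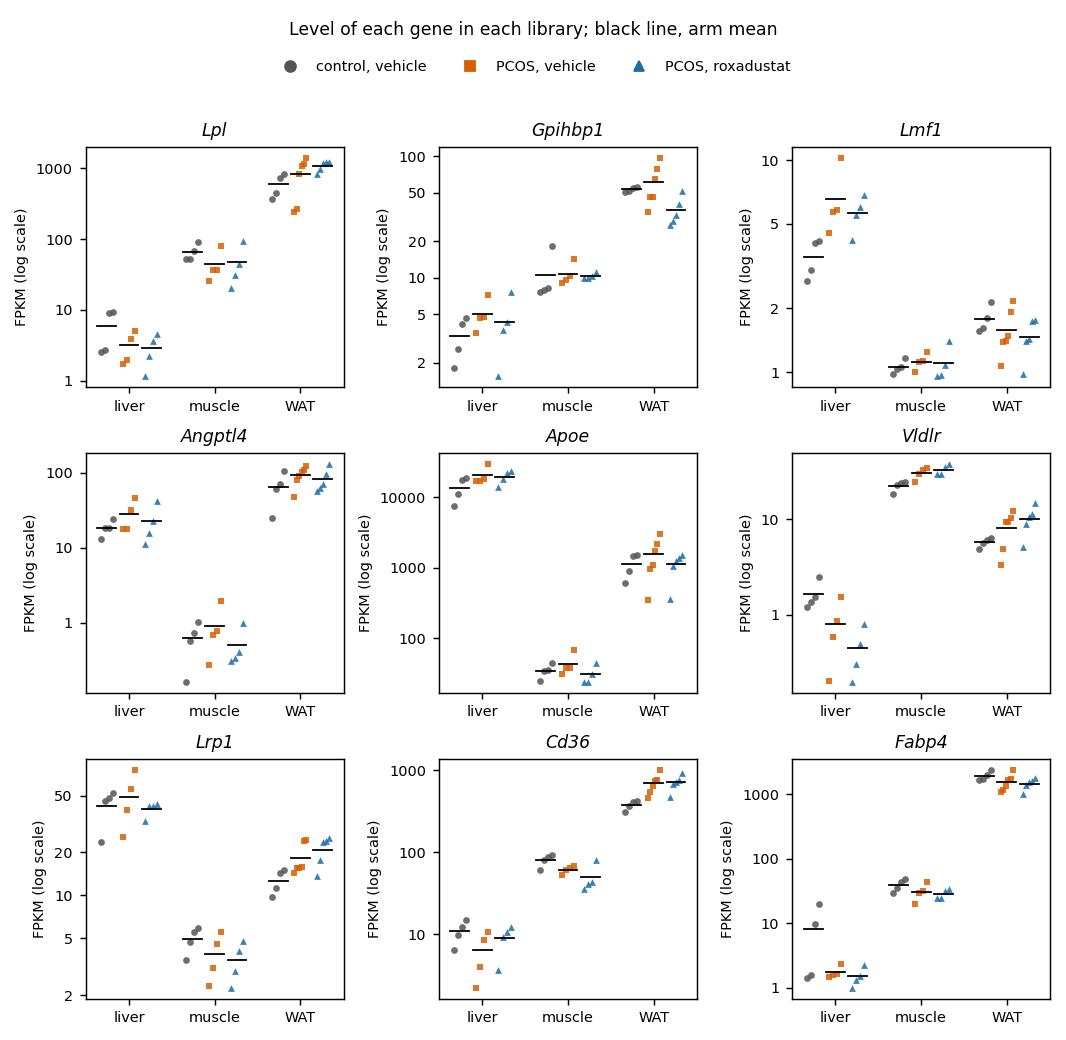
FPKM on a log axis of each of the 9 genes in each of the 39 libraries, by tissue on the horizontal axis and by arm in colour and shape, with the arm mean as a black line. Lpl, Gpihbp1, Angptl4, Cd36 and Fabp4 sit highest in WAT, Vldlr in muscle, and Apoe, Lrp1 and Lmf1 in liver, and 2 control livers stand above the rest for Lpl and Fabp4.

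All 9 genes were called in each comparison of control tissues, where most genes differ. Called genes made up 57.0% of 14801 genes tested between WAT and liver, 68.9% of 14615 between WAT and muscle and 71.3% of 14118 between liver and muscle, and the count of 9 is to be read beside these shares. WAT exceeded liver by 6.67 (SE 0.43) for Lpl, 8.49 (SE 0.65) for Fabp4 and 5.10 (SE 0.24) for Cd36 in log2, with adjusted p of 1.68e-07, 7.81e-07 and 1.10e-08. Liver exceeded muscle by 8.53 (SE 0.32) for Apoe and by 2.94 (SE 0.25) for Lrp1, with adjusted p of 8.33e-10 and 1.02e-06. Angptl4 was 105-fold higher in control WAT, at 65.3 ± 32.9 FPKM, than in muscle, at 0.623 ± 0.360 FPKM, where its reads numbered 8 to 48 in control libraries. Without the livers of mice 789 and 801 the gap between WAT and liver was 7.48 for Lpl and 9.92 for Fabp4, and both were called. Rescaling FPKM to a fixed total (TPM) raised the median gene by 0.63 between WAT and liver and by 0.53 between WAT and muscle. Under it 8 of the 9 genes were called between WAT and liver, and Lmf1, lower in WAT by a log2 difference of -0.79 (adjusted p = 0.00556) on the FPKM scale, stood at -0.24 (adjusted p = 0.433).

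Fatty acid binding proteins showed the same division. In control mice Fabp1, the liver form, was at 6165 ± 1508 FPKM in liver, Fabp3, the heart and muscle form, at 372 ± 135 FPKM in muscle, and Fabp4 was the highest of the family in WAT. Fabp5, the second form of adipocytes and macrophages, was at 69.1 ± 11.4 FPKM in WAT, 30.7 ± 12.3 in liver and 2.02 ± 0.824 in muscle. Fabp3 in control WAT varied from 0.891 to 51.1 FPKM, and its highest value was in mouse 802. The summed myofibre markers of that library were 13.8 FPKM, while mouse 789 had the highest sum of the 4, 135 FPKM.

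**Figure D2:**
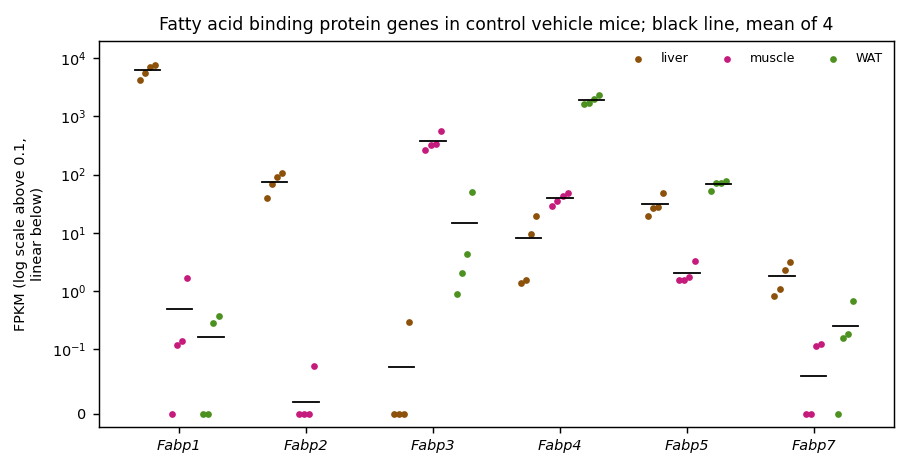
FPKM of 6 fatty acid binding protein genes in the 4 control vehicle mice of each tissue, 1 point per mouse and a black line for the mean, on an axis that is logarithmic above 0.1 FPKM and linear below. Fabp2 has no WAT points because the WAT table of these arms does not list it; Fabp1 leads in liver, Fabp3 in muscle and Fabp4 in WAT.

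On the FPKM scale the order of the 9 groups of tissue and arm followed tissue first for each gene. On that scale no arm of a lower tissue had a higher mean than any arm of the next tissue, for any of the 9 genes. After TPM rescaling Lrp1 left this order. Its mean TPM was 86.6 in roxadustat WAT, beside 81.2, 79.7 and 69.1 in control, PCOS vehicle and roxadustat liver. Neighbours in the FPKM order were mostly arms of 1 tissue whose means lay closer than the larger SD of the pair. Exceptions within a tissue were the step from PCOS arms down to control for Cd36 and Lrp1 in WAT, Vldlr in muscle, and Lmf1 and Apoe in liver, the step from control down to the PCOS arms for Cd36 in muscle and Vldlr in liver, and the step from control down to roxadustat for Gpihbp1 in WAT.

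Between arms, 0 of the 9 genes were called by limma in any of the 9 comparisons within a tissue. For PCOS vehicle against control vehicle, called genes made up 0.820% of 14021 genes in liver, 0.104% of 13438 in muscle and 0.346% of 15603 in WAT. For roxadustat against PCOS vehicle, 0% of the genes were called in liver, muscle and WAT, of 14015, 13296 and 15320 tested. There the lowest adjusted p of the 9 genes was 0.99972, 0.99995 and 0.99998, 411, 320 and 266 genes had an unadjusted p under 0.05, and voom called 0. For roxadustat against control vehicle, 0% of 14152 genes were called in liver, 0.349% of 13468 in muscle and 5.79% of 15499 in WAT. At an unadjusted p under 0.05 the 9 genes gave 2, 1 and 5 in WAT, 2, 0 and 2 in liver, and 2, 0 and 3 in muscle, in the order PCOS against control, roxadustat against PCOS and roxadustat against control. Over all genes the shares in the same order were 12.1%, 1.74% and 26.7% in WAT, 11.2%, 2.93% and 8.11% in liver, and 6.32%, 2.41% and 11.3% in muscle. voom on recovered reads called 1 of the 9 genes in 1 of these comparisons, Cd36 for roxadustat against control in WAT, and 0 in the other 8. Comparisons that share an arm share its libraries, so their values are not independent. Where all libraries of an arm are said below to lie above or below those of another, this is description only. The share of all genes whose arms separate in that way was not computed.

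**Figure D3:**
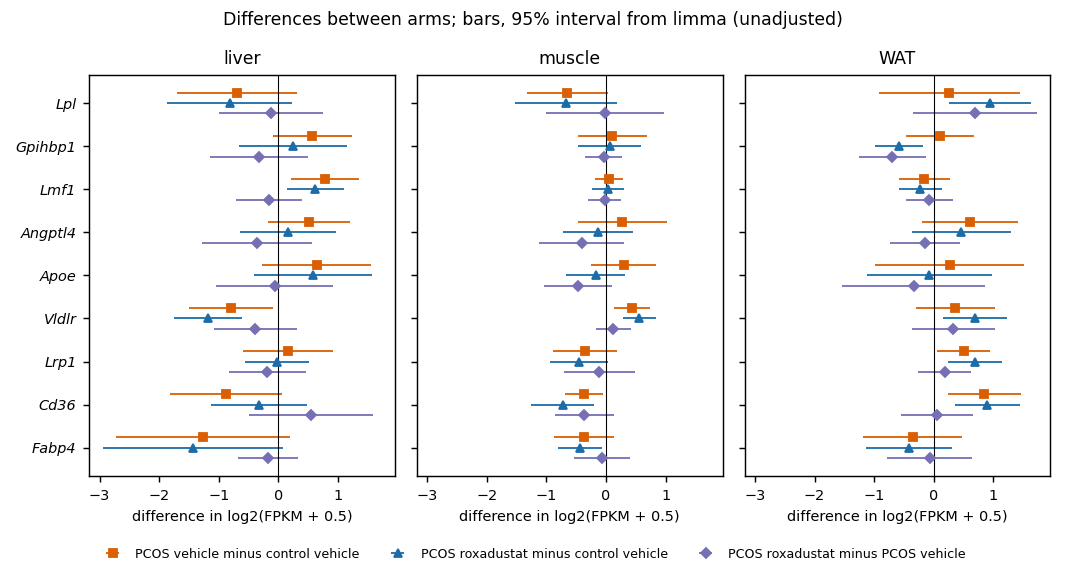
Log2(FPKM + 0.5) differences between arms for the 9 genes, 1 panel per tissue, with symbols for the 3 pairs of arms and bars for the unadjusted 95% interval of limma. Intervals against control that leave out 0 include Cd36 and Lrp1 in WAT and, under roxadustat alone, Lpl, Vldlr and Gpihbp1 in WAT, the last below 0. They also include Vldlr in muscle and liver, and Lmf1 in liver. None of the 81 values passed the adjusted threshold.

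Lpl lies on chromosome 8, 69333143 to 69360100 (mm39, plus strand). In WAT its values were 839.5, 365, 442 and 731 FPKM in the 4 control mice, 240 to 1392 FPKM with a median of 961 in the 6 PCOS vehicle mice, and 1228, 844, 1225, 1186 and 988 FPKM in the 5 roxadustat mice. Every roxadustat library lay above every control library, while the PCOS vehicle mice spread across the whole range, with mice 822 and 785 lowest. Against control the difference was 0.95 (SE 0.31) under roxadustat, with an unadjusted 95% interval of 0.26 to 1.64 and an adjusted p of 0.0897. It was 0.26 (SE 0.55, adjusted p = 0.910) in PCOS vehicle mice, and roxadustat against PCOS vehicle was 0.68 (SE 0.48). The difference from control under roxadustat was 1.36 (adjusted p = 0.0134) after TPM rescaling, which raised the median gene by 0.39, and 1.07 (adjusted p = 0.0251) with sample quality weights. With the adipocyte marker sum as a covariate it was 0.83 (adjusted p = 0.287), and that of PCOS vehicle mice was -0.02 (adjusted p = 0.986). Cfd made up 66.8% of this sum in WAT, with means of 13068, 11378 and 6433 FPKM in control, PCOS vehicle and roxadustat mice. Other markers moved either way, as Retn (1267, 941 and 713 FPKM) and Plin1 (247, 354 and 389 FPKM) show. The covariate thus follows Cfd most, for every gene in WAT, and is not a measure of adipocyte content alone.

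In muscle Lpl was at 52.7, 67.9, 89.9 and 52.4 FPKM in control mice, 36.5, 78.9, 25.5 and 37.1 in PCOS vehicle mice and 20.3, 31.0, 93.3 and 43.9 in roxadustat mice. Mouse 773 of the PCOS vehicle arm lay within the control range, mouse 795 of the roxadustat arm above it, and the other 6 lay below all 4 controls. The differences from control were -0.65 (SE 0.31, adjusted p = 0.809) and -0.67 (SE 0.39, adjusted p = 0.535). With the adipocyte marker sum as a covariate they were -1.01 (adjusted p = 0.999) and -1.38 (adjusted p = 0.265). Cfd made up 72.3% of this sum in muscle, with means of 141, 28.4 and 25.5 FPKM in control, PCOS vehicle and roxadustat mice. The covariate thus follows Cfd most there too and partly overlaps with arm. In liver Lpl was at 9.26 and 9.02 FPKM in control mice 789 and 801 and at 2.73 and 2.57 in the other 2, beside 1.73 to 5.11 in PCOS vehicle and 1.16 to 4.63 in roxadustat mice. The 2 high livers are those with high adipocyte markers. PCOS vehicle against control gave -0.69 (SE 0.46, adjusted p = 0.610), and without these 2 libraries the value was 0.11 (adjusted p = 0.968).

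Lmf1, the lipase maturation factor, lies on chromosome 17, 25798059 to 25881800 (mm39, plus strand). In liver it was at 4.05, 2.69, 4.18 and 3.02 FPKM in control mice, 5.72, 10.2, 5.79 and 4.53 in PCOS vehicle mice, and 6.86, 5.99, 5.50 and 4.20 in roxadustat mice. Each library of both PCOS arms lay above all 4 controls. The differences were 0.79 (SE 0.26, adjusted p = 0.288) and 0.62 (SE 0.21, adjusted p = 0.528), and the authors' deposited table gives Lmf1 a log2 fold change of 0.91 with an adjusted p of 0.0466 for PCOS vehicle against control. In muscle all 12 values lay between 0.960 and 1.40 FPKM, and in WAT all 15 between 0.981 and 2.17. Roxadustat against PCOS vehicle gave -0.16 (SE 0.25) in liver, -0.02 (SE 0.12) in muscle and -0.07 (SE 0.18) in WAT.

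Because roxadustat acts through HIF, the promoters in RefSeq (GRCm38.p6) were searched for the core of its response element, ACGTG or GCGTG, on both strands, from 250 bases before to 50 bases after the start. Promoters of Lmf1, Apoe, Vldlr, Lrp1 and Cd36 were found, 5 of the 9 genes, and those of Lpl, Gpihbp1, Angptl4 and Fabp4 were not analysed here. The letters occur in 43.8% of the 32851 promoters of the table. Lmf1 held 4 matches, all GCGTG on the plus strand, beginning 95, 88, 62 and 20 bases before the start, while the other 4 genes held none. The letters AGGTCA, the repeat unit of elements bound by peroxisome proliferator-activated receptors (PPARs), were searched on both strands too, were in 16.3% of all promoters, and stood once in that of Cd36, on the reverse strand. The full element, this unit repeated after a spacer base, was in 13 of the 32851 promoters and in none of those of the 5 genes. The Lmf1 promoter (chr17:25578924-25579223, plus strand) is shown for its 4 matches. That of Cd36 (chr5:17835847-17836146, minus strand) is shown for the single repeat unit in a known PPAR target gene. The promoters of the 2 starts of Vldlr (chr19:27216234-27216533 and chr19:27216770-27217069, plus strand) are shown beside them because Vldlr and Cd36 varied together in WAT. Each is written 5′ to 3′ along the gene's strand. Capitals mark GCGTG in Lmf1 and the reverse complement of AGGTCA in Cd36, and a match is a stretch of letters, not a measured site.
Lmf1: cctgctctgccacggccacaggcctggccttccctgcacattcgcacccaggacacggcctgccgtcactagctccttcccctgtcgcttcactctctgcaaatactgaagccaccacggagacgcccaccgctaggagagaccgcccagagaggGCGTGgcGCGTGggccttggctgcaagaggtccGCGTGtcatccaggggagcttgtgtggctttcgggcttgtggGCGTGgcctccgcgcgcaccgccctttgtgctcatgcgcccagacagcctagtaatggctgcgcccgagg
Cd36: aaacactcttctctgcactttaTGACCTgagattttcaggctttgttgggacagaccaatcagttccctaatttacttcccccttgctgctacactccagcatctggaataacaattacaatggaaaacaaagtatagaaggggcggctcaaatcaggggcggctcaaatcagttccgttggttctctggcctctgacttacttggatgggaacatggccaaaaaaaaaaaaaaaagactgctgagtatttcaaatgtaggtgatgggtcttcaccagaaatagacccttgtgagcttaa
Vldlr, upstream start: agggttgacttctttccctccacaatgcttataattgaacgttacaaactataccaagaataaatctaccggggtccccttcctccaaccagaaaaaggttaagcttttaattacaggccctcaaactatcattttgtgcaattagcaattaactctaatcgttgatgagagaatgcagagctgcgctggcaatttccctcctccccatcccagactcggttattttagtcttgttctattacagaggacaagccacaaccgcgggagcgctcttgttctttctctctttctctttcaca
Vldlr, downstream start: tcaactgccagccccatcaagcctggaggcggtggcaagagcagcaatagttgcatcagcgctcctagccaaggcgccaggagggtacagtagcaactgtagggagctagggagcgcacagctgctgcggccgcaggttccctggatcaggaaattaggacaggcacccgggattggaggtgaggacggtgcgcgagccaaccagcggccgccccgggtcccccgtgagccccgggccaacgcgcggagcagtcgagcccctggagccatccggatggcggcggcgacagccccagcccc

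Gpihbp1, the endothelial anchor of the lipase, lies on chromosome 15, 75468477 to 75471330 (mm39, plus strand). In WAT it was at 51.5, 50.6, 56.2 and 54.8 FPKM in control mice, 34.5 to 96.2 FPKM with a median of 55.5 in PCOS vehicle mice, and 51.5, 32.5, 29.5, 27.4 and 40.5 FPKM in roxadustat mice. In WAT 4 of the 5 roxadustat libraries lay below all controls, and mouse 764 reached the control range. Roxadustat against PCOS vehicle gave -0.69 (SE 0.26), and this was the single member of the 9 at an unadjusted p under 0.05 in that comparison, where 1.74% of all genes were. Roxadustat against control gave -0.59 (SE 0.18, adjusted p = 0.0769), and without mouse 764 -0.72 (adjusted p = 0.0168). It was -0.18 (adjusted p = 0.427) after TPM rescaling and -0.43 (adjusted p = 0.329) with the adipocyte marker sum as a covariate. The summed endothelial markers of WAT were 153 to 226 FPKM in control, 230 to 379 in PCOS vehicle and 156 to 284 in roxadustat mice, so PCOS vehicle lay above control and roxadustat overlapped both. Their part in the values of Gpihbp1 was not tested. Lpl and Gpihbp1 thus had opposite signs against control under roxadustat, and neither passed. In muscle Gpihbp1 ranged from 7.67 to 18.3 FPKM and in liver from 1.55 to 7.62, with adjusted p of at least 0.514 in their 6 comparisons.

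Angptl4, the lipase inhibitor and a gene that fasting, PPARs and hypoxia are known to raise, lies on chromosome 17, 33992724 to 34000804 (mm39, minus strand). It was at 65.3 ± 32.9 FPKM in control, 92.7 ± 27.2 in PCOS vehicle and 83.9 ± 30.4 in roxadustat WAT (n = 4, 6 and 5), and at 18.5 ± 4.46, 28.4 ± 13.5 and 23.1 ± 13.9 in liver (n = 4 each). The arms overlapped in every comparison. Roxadustat against PCOS vehicle gave -0.15 (SE 0.27) in WAT, -0.36 (SE 0.42) in liver and -0.41 (SE 0.32) in muscle. The unadjusted 95% intervals ran from -0.74 to 0.44, from -1.29 to 0.57 and from -1.12 to 0.30, on the log2(FPKM + 0.5) scale, which understates changes at the low level of muscle.

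Apoe, the ligand of remnant receptors, lies on chromosome 7, 19430034 to 19433113 (mm39, minus strand). It took 153310 to 716802 reads of a liver library. Liver levels were 13570 ± 5363 FPKM in control, 20408 ± 5908 in PCOS vehicle and 19390 ± 4367 in roxadustat mice, and the arms overlapped. The differences from control were 0.65 (SE 0.42, adjusted p = 0.601) and 0.58 (SE 0.44, adjusted p = 0.728). In WAT Apoe had the widest spread of the 9 genes, from 347 FPKM in PCOS vehicle mouse 814 to 3026 FPKM in PCOS vehicle mouse 785, an 8.71-fold range.

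Vldlr, the receptor that binds triglyceride-rich particles in muscle and fat, lies on chromosome 19, 27193884 to 27231631 (mm39, plus strand). In muscle it was at 24.5, 23.0, 18.3 and 24.1 FPKM in control mice, 29.7, 34.7, 33.3 and 24.8 in PCOS vehicle mice and 35.5, 29.7, 37.9 and 30.1 in roxadustat mice. Each PCOS muscle of both arms lay above all 4 controls. The differences were 0.44 (SE 0.14, adjusted p = 0.559) and 0.56 (SE 0.13, adjusted p = 0.148). In liver the sign was the other one: 2.48, 1.202, 1.36 and 1.52 FPKM in control mice, 1.54, 0.199, 0.853 and 0.585 in PCOS vehicle mice, and 0.300, 0.196, 0.497 and 0.793 in roxadustat mice. Every roxadustat liver lay below every control liver. The difference was -1.18 (SE 0.26, adjusted p = 0.328) under roxadustat and -0.80 (SE 0.32, adjusted p = 0.391) in PCOS vehicle mice, on 23 to 314 reads a library. Without roxadustat mouse 808 the first value was -1.34 with an adjusted p of 0.0474, and without control mice 789 and 801 it was -1.07 with an adjusted p of 0.821. In WAT Vldlr was at 5.69, 6.10, 4.91 and 6.39 FPKM in control mice, 3.33 to 12.1 with a median of 9.30 in PCOS vehicle mice, and 5.18, 10.5, 14.8, 8.84 and 11.3 in roxadustat mice. The value under roxadustat was 0.69 (SE 0.24, adjusted p = 0.101), and with the adipocyte marker sum as a covariate 0.19 (adjusted p = 0.614).

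Lrp1, a large endocytic receptor for remnants and many other ligands, lies on chromosome 10, 127374030 to 127457017 (mm39, minus strand). It overlaps Gm16217, a long non-coding RNA on the plus strand, and the labels do not say which libraries kept strand, so reads of the pair cannot be told apart. In WAT it was at 12.6 ± 2.53 FPKM in control, 18.3 ± 4.64 in PCOS vehicle and 20.9 ± 5.05 in roxadustat mice, and the arms overlapped. The differences from control were 0.50 (SE 0.21, adjusted p = 0.365) and 0.69 (SE 0.20, adjusted p = 0.0694). In liver it was at 42.5 ± 12.8, 49.1 ± 21.3 and 40.2 ± 4.76 FPKM, and in muscle at 4.95 ± 1.06, 3.90 ± 1.45 and 3.53 ± 1.14.

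Cd36, the fatty acid translocase, lies on chromosome 5, 17986688 to 18093799 (mm39, minus strand). In WAT it was at 366, 408, 419 and 313 FPKM in control mice, 465 to 1010 with a median of 686 in PCOS vehicle mice, and 478, 679, 935, 757 and 718 in roxadustat mice. All 11 PCOS libraries lay above all 4 controls, a 1.85-fold higher mean in PCOS vehicle and 1.90-fold in roxadustat mice. Markers of other cells separated the same libraries: 6 mesothelial genes summed to 22.3 to 49.3 FPKM in control WAT and 3.50 to 13.8 in the PCOS arms, and 5 epithelial genes to 3.76 to 9.61 and 0.243 to 2.17 FPKM. Their part in the values of Cd36 was not tested. The differences were 0.85 (SE 0.28, adjusted p = 0.261) and 0.90 (SE 0.25, adjusted p = 0.0551), and roxadustat against PCOS vehicle gave 0.05 (SE 0.28). The authors' deposited table gives 0.85 for PCOS vehicle against control with an adjusted p of 0.0133. With sample quality weights both differences from control were called, at 0.88 (adjusted p = 0.0342) and 0.84 (adjusted p = 0.0168). With the adipocyte marker sum as a covariate they were 0.73 (adjusted p = 0.150) and 0.68 (adjusted p = 0.240).

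In muscle Cd36 was at 61.6, 80.0, 88.0 and 93.1 FPKM in control mice, 64.3, 61.7, 52.9 and 68.9 in PCOS vehicle mice, and 35.6, 43.3, 81.5 and 41.6 in roxadustat mice. In 3 of the 4 roxadustat muscles Cd36 lay below all PCOS vehicle muscles, while mouse 795 lay in the control range. The differences from control were -0.37 (SE 0.14, adjusted p = 0.699) and -0.73 (SE 0.24, adjusted p = 0.321), and the second was -0.98 with an adjusted p of 0.0442 without mouse 795. In the same muscles 4 smooth muscle markers summed to 31.8 to 41.2 FPKM in control, 15.6 to 30.2 in PCOS vehicle and 10.4 to 37.3 in roxadustat mice, and 10 endothelial markers to 80.6 to 106, 76.8 to 102 and 70.9 to 107 FPKM. Their part was not tested. In liver it was at 10.9 ± 3.63, 6.41 ± 3.99 and 8.97 ± 3.71 FPKM in control, PCOS vehicle and roxadustat mice, and the arms overlapped.

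Fabp4 lies on chromosome 3, 10269148 to 10273636 (mm39, minus strand). In liver it was at 19.8 and 9.55 FPKM in control mice 789 and 801, at 1.40 and 1.55 in the other 2, at 1.44 to 2.31 in PCOS vehicle and at 0.988 to 2.22 in roxadustat mice. The 2 high libraries are again those with adipocyte markers: Adipoq was at 10.6 and 8.47 FPKM there and at 0 to 0.183 in the other 10 livers, and Plin1 at 2.82 and 1.13 against 0 to 0.0496. PCOS vehicle against control was -1.26 (SE 0.66, adjusted p = 0.513) with these libraries and 0.17 (adjusted p = 0.917) without them. In WAT Fabp4 was at 1928 ± 310, 1552 ± 470 and 1453 ± 289 FPKM in control, PCOS vehicle and roxadustat mice, and its spread over the 15 mice was 24.9% of the mean, where Lmf1 had 21.6% and Apoe 53.5%. In muscle the 3 arms were at 39.1 ± 8.44, 30.8 ± 9.78 and 28.6 ± 4.47 FPKM, with -0.43 (SE 0.17, adjusted p = 0.382) for roxadustat against control.

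**Figure D4:**
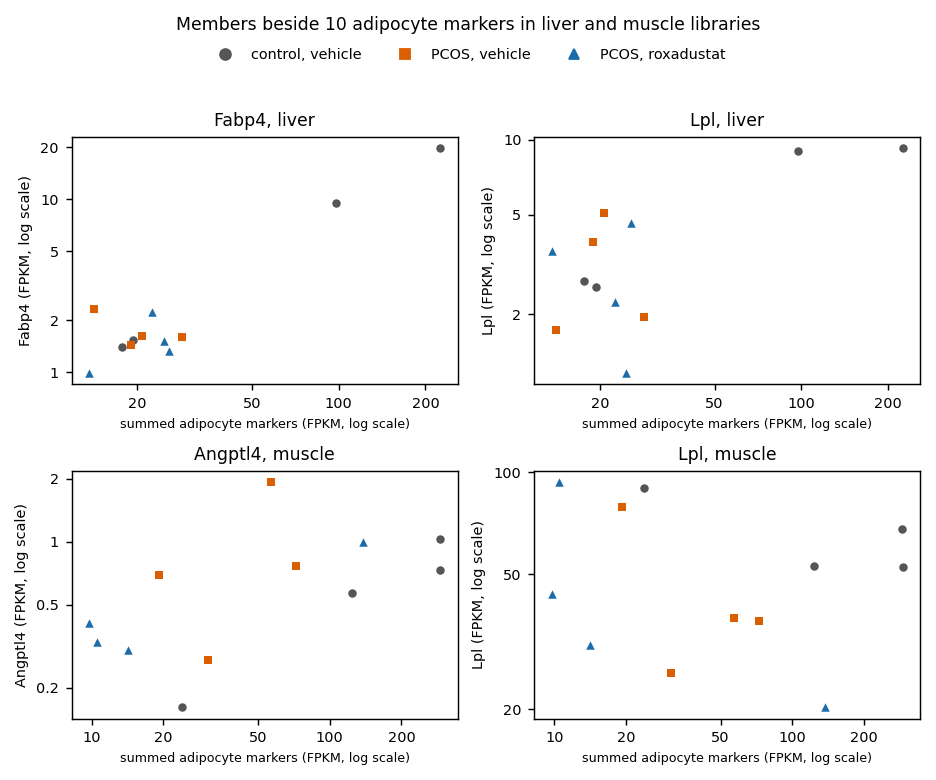
Fabp4 and Lpl in the 12 livers and Angptl4 and Lpl in the 12 muscles, in FPKM on log axes, against the summed FPKM of 10 adipocyte markers in the same library, with arms by colour and shape. The control livers of mice 789 and 801 lie apart at 225 and 97.7 FPKM of markers, with 19.8 and 9.55 FPKM of Fabp4.

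The difference between tissues in an arm's effect was tested for the 9 genes in 6 pairs, 54 values, and 0 were called by limma. For the PCOS effect, called genes made up 0.755% of 16418 genes for WAT minus liver, 0.154% of 16227 for WAT minus muscle and 0.503% of 15100 for liver minus muscle. For the roxadustat effect 0% were called in the 3 pairs, of 16540, 16150 and 15119 genes, where 337, 219 and 403 had an unadjusted p under 0.05. At an unadjusted p under 0.05 the 9 genes gave 3, 2 and 2 for the PCOS effect and 0 in each pair for roxadustat, and voom called 0 in all 6. Over all genes the shares for the PCOS effect were 14.4%, 9.79% and 7.23%. Cd36 had the lowest p of the 9 in both pairs with WAT, as its PCOS effect was 1.72 (SE 0.49, adjusted p = 0.109) higher in WAT than in liver and 1.22 (SE 0.30, adjusted p = 0.132) higher than in muscle. With sample quality weights these were 1.65 (adjusted p = 0.0355) and 1.16 (adjusted p = 0.0141). Without the livers of control mice 789 and 801, which had the highest Cd36 of that tissue, the first was 1.35 (adjusted p = 0.426). Vldlr had the lowest p between liver and muscle, at -1.23 (SE 0.36, adjusted p = 0.280).

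Mice of 1 arm differed in WAT by several fold, and 5 of the genes varied with the adipocyte markers. The sum of the 10 markers was 14333 to 20832 FPKM in control, 5991 to 40461 in PCOS vehicle and 5128 to 17542 in roxadustat WAT, and Cfd, the adipocyte serine protease adipsin, made up 66.8% of it. On the log2 scale with arm means removed, over 15 mice, Vldlr went down as the sum went up (Pearson r = -0.90, permutation p = 1e-05, the smallest 100000 permutations can give, and Spearman rho = -0.87, permutation p = 2e-05). Cd36 did so too (r = -0.81, permutation p = 0.00031, rho = -0.65, permutation p = 0.00993). Apoe (r = 0.89, permutation p = 1e-05, rho = 0.90, permutation p = 4e-05) and Lmf1 (r = 0.87, permutation p = 0.00012, rho = 0.825, permutation p = 0.0003) went up with it. Without mice 785 and 814, the farthest from the median of the sum, r was -0.88 for Vldlr, -0.645 for Cd36, 0.84 for Apoe and 0.77 for Lmf1. Adjusted over the 18 relations computed, 9 in WAT and 9 in muscle, 6 had a Pearson p under 0.05: these 4, with adjusted p of 9e-05 (Vldlr and Apoe), 0.00072 (Lmf1) and 0.00139 (Cd36), Gpihbp1 in WAT (r = 0.73, permutation p = 0.00197, rho = 0.59, permutation p = 0.0234) and Angptl4 in muscle (r = 0.74, permutation p = 0.00635, rho = 0.74, permutation p = 0.00784, 12 mice). Without the 2 farthest mice r was 0.59 for Gpihbp1 and 0.585 for Angptl4. The adjusted Spearman p was 0.0602 for Gpihbp1 and 0.0353 for Angptl4.

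These relations are descriptions of libraries that share depth and composition. The permutations, here and for the pairs of genes below, shuffled mice over a whole tissue after arm means were removed, not within arms. As the arms differ in spread, their p-values may be too small. Taking the mean log2 of the 10 markers, in which Cfd has no more weight than the others, r was -0.69 for Vldlr, -0.68 for Cd36, 0.84 for Apoe and 0.88 for Lmf1. The largest component of variance in WAT held 32.6% of the variance of 16564 genes around the arm means, and its r was 0.80 with Vldlr, 0.81 with Cd36, -0.83 with Apoe and -0.88 with Lmf1. Mouse 785 had its most extreme score, -0.738, and 14082 genes detected, where WAT libraries ranged from 14082 to 21621. The loadings of the component had a Spearman correlation of 0.276 with gene length. The part of library quality in these relations was not tested. Lrp1 and Angptl4 followed neither the marker sum, with r of -0.07 and -0.06, nor the component, with r of 0.01 and -0.05. Lpl lay between, with r of 0.69 with the component and -0.58 with the marker sum (permutation p = 0.0238, adjusted p = 0.0549). The latter was -0.29 without mice 785 and 814. In muscle Lpl had r of -0.64 with the marker sum of that tissue (permutation p = 0.0244, adjusted p = 0.0549). No correlation with the marker sum is given for liver, since 2 of its libraries lie apart from the other 10.

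**Figure D5:**
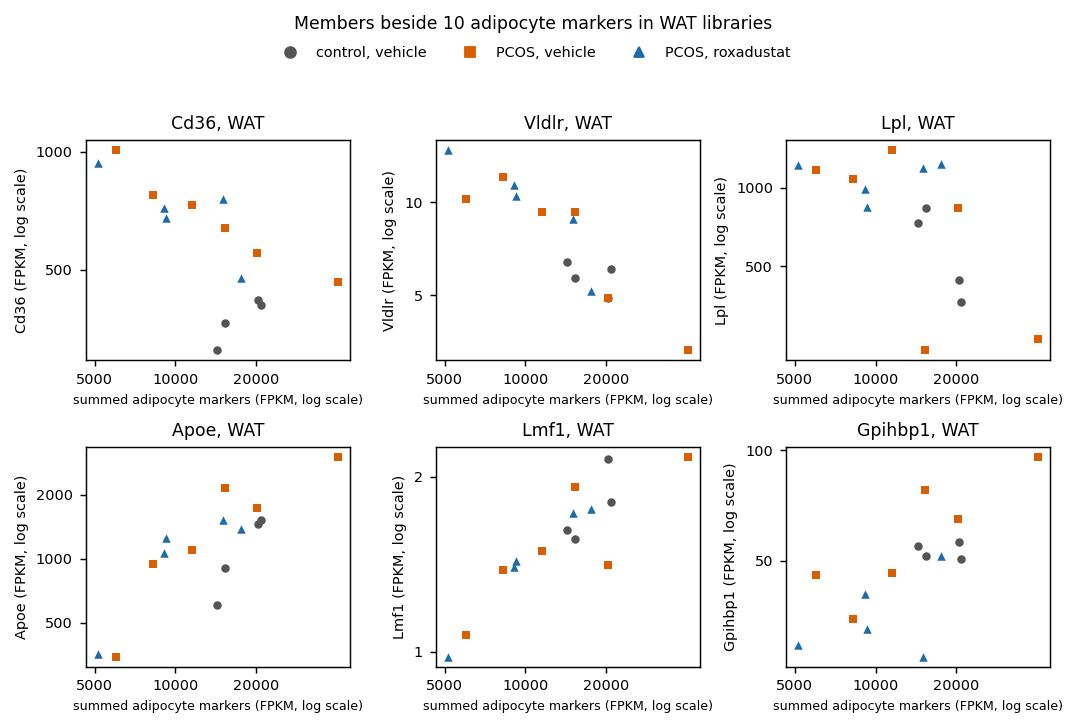
Cd36, Vldlr, Lpl, Apoe, Lmf1 and Gpihbp1 in the 15 WAT libraries, in FPKM on log axes, against the summed FPKM of 10 adipocyte markers, with arms by colour and shape. Vldlr and Cd36 fall and Apoe and Lmf1 climb along the axis, mouse 785 is the point at 40461 FPKM, and the 4 control mice lie below the PCOS mice of like marker sum for Cd36.

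Pairs of the 9 genes were compared over mice in the same way, 108 pairs in 3 tissues, of which 5 had an adjusted Pearson p under 0.05. Lmf1 and Apoe varied together in WAT (r = 0.91, permutation p = 1e-05, rho = 0.93, permutation p = 1e-05, 15 mice) and in liver (r = 0.855, permutation p = 0.00055, rho = 0.92, permutation p = 6e-05, 12 mice), with adjusted Pearson p of 0.00108 and 0.0198. In WAT Vldlr and Cd36 varied together (r = 0.81, permutation p = 0.00018, adjusted p = 0.00972, rho = 0.66, permutation p = 0.0085), where the adjusted Spearman p was 0.107. Gpihbp1 varied against Cd36 (r = -0.77, permutation p = 0.00085, adjusted p = 0.0229, rho = -0.75, permutation p = 0.00171) and against Vldlr (r = -0.75, permutation p = 0.00116, adjusted p = 0.0251, rho = -0.59, permutation p = 0.0246). The adjusted Spearman p was 0.0369 with Cd36 and 0.189 with Vldlr. Leaving out the 2 farthest mice gave 0.85, 0.91, 0.60, -0.74 and -0.55 in the same order. The genes of these 5 pairs also followed the largest component of variance of their tissue. In WAT its r was -0.75 with Gpihbp1, beside the values given above for the other genes. In liver the r of that tissue's largest component was 0.87 with Lmf1 and 0.81 with Apoe. The part of these components in the pairs was not tested. Lpl and its anchor Gpihbp1 had r of -0.67 in WAT, 0.18 in liver and 0.265 in muscle.

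The genes whose level over mice was most like Lpl differed by tissue, by Pearson r with arm means removed among protein-coding genes. They were Eif5b (0.98), Ppp3ca (0.97) and Cacybp (0.96) over 15 mice among 13968 genes in WAT. In muscle they were Alpl (0.96), Pdlim1 (0.94) and Dnajb1 (0.94) over 12 mice, and in liver Gys1 (0.92), Prim1 (0.90) and Wapl (0.89). In the tissue of its highest level, Cd36 was most like Atl3 and S1pr3 (0.95 each), Gpihbp1 like Egfl7 (0.91) and Ercc1 (0.89), Angptl4 like Ints4 (0.93) and Slc46a1 (0.88), and Fabp4 like Spcs2 (0.90) and Pdcd5 (0.89). Vldlr in muscle was most like Inpp5f (0.94) and Ppargc1b (0.93), and in liver Lmf1 like Dxo (0.98) and Mapkapk2 (0.96), Apoe like Zfp385a and Dctn2 (0.97 each), and Lrp1 like Cc2d2a and Ubr4 (0.95 each). Egfl7 is an endothelial gene and Ppargc1b a coactivator of oxidative metabolism, while the other named genes were not sorted by function. All were picked as the highest among 12351 to 13968 genes over 12 or 15 mice. A high r arises in part from that choice, and no test was made.

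Other genes of lipid handling were read from 5 lists that leave out the 9 genes, and of the 9 comparisons between arms 1 held calls. For roxadustat against control in WAT, 3 of 17 tested lipolysis and particle genes were called, 1 higher and 2 lower, with a list median of 0.50 beside 0.02 for all genes. Apoc1 and Apoc3, apolipoproteins that restrain lipase and remnant uptake, fell by 1.49 (SE 0.31, adjusted p = 0.0267) and 1.93 (SE 0.45, adjusted p = 0.0382) in log2, from 126 ± 20.3 to 47.8 ± 19.3 FPKM and from 4.51 ± 0.485 to 1.23 ± 1.74. Sel1l, which helps lipase leave the endoplasmic reticulum, rose by 0.80 (SE 0.17, adjusted p = 0.0278). Of 15 fatty acid uptake and carrier genes 2 were called, both higher: the caveolar genes Cav2 at 0.90 (SE 0.20, adjusted p = 0.0312) and Cav1 at 0.95 (SE 0.23, adjusted p = 0.0395). Of 12 receptor genes Lrp6 was called at 0.63 (SE 0.16, adjusted p = 0.0462), of 18 PPAR regulators and targets Cpt1a, the mitochondrial fatty acid importer, at 1.02 (SE 0.27, adjusted p = 0.0495), and of 22 HIF target genes Pfkfb4, a glycolytic regulator, at 1.06 (SE 0.18, adjusted p = 0.0173). The list medians of the last 4 were 0.00, 0.10, 0.14 and 0.16. These counts of 1 to 3 stand beside 5.79% of all genes called. With all 3 arms in 1 fit this comparison called 61 genes, 9 higher and 52 lower, in place of 897, 486 higher and 411 lower. The calls of the list genes under that fit are not given here. Markers of mesothelium moved in the same comparison: the 6 genes summed to 22.3 to 49.3 FPKM in control WAT and 3.50 to 13.8 FPKM in the 11 PCOS libraries, and their part in these values was not tested.

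In the other 8 comparisons between arms 0 genes of the 5 lists were called by limma, and 0 to 8 genes of a list had an unadjusted p under 0.05. In WAT the genes with the lowest p of their list for PCOS against control included Apoc3 (-1.63, adjusted p = 0.0928), Fabp5 (-0.70, adjusted p = 0.203), Acot1 (-0.71, adjusted p = 0.246) and Sorl1 (-0.90, adjusted p = 0.266). In liver they included Apoc1 (1.21, adjusted p = 0.279), Fabp1 (1.02, adjusted p = 0.288) and Rxrg (-0.48, adjusted p = 0.438). In muscle they included Egln3 (-1.32, adjusted p = 0.116), Acsl3 (0.50, adjusted p = 0.650) and Pcsk6 (-0.62, adjusted p = 0.717). For roxadustat against control they were Apoa4 (1.04, adjusted p = 0.249), Ddit4 (0.79, adjusted p = 0.470), Lsr (0.59, adjusted p = 0.519), Ppargc1a (-0.72, adjusted p = 0.614) and Slc27a4 (0.46, adjusted p = 0.629) in liver. In muscle they included Acsl3 (0.62, adjusted p = 0.253), Kdm3a (-0.35, adjusted p = 0.355) and Pcsk6 (-0.80, adjusted p = 0.424).

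For roxadustat against PCOS vehicle the lowest adjusted p of the 5 lists was 0.99972 in liver, 0.99995 in muscle and 0.99998 in WAT. HIF targets with an unadjusted p under 0.05 numbered 2 of 20 in liver, 1 of 23 in muscle and 2 of 23 in WAT, led by Pgk1 (0.61) in liver, Tfrc (-0.75) in muscle and Egln3 (0.65) in WAT, with list medians of 0.00, -0.03 and 0.01. Genes with the lowest p of the other lists included Apoa4 (0.58), Lsr (0.62) and Cav1 (0.53) in liver, Apoa1 (-1.23), Acsl5 (-0.22) and Acot2 (-0.44) in muscle, and Mttp (0.26), Mylip (-0.39), Slc27a3 (-0.45) and Acot1 (0.29) in WAT. These are log2 differences. In muscle the 8 hepatocyte markers summed to 0.891 to 104 FPKM in PCOS vehicle and 1.15 to 2.68 FPKM in roxadustat mice. Their part in the value of Apoa1 was not tested.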

How the data were processed

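Poly-A RNA libraries of liver, muscle and WAT were prepared from 300 ng of RNA, with separate extraction kits for WAT and for the other tissues, per the labels' protocols. The submitters' processing notes name CASAVA 1.8, HISAT2 2.0.5, DESeq2 1.20.0 and build mm39; the read counter and its strand setting are not given in the sources used here. The deposited tables hold FPKM per library and the gene length used by the authors, and, per the file headers, log2 fold changes and p-values of the authors' own comparisons. FPKM times gene length gave whole reads for 100% of values (tolerance 0.001), and these reads served for depth, the filter and voom.

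Each pair of arms was fitted with limma 3.58.1 (R 4.3.3, with trend) on log2(FPKM + 0.5), two-sided, for genes with at least 15 reads in total and 10 reads, scaled to the median depth, in a number of libraries equal to the smaller group, with Benjamini-Hochberg adjustment over all genes. The step was tested on simulated data. Tissues of control mice, and differences of an arm's effect between tissues, were fitted likewise, without the mouse as a block; the same mice gave the tissues, and the correlation between libraries of a mouse was -0.0991 to 0.126. Replicates are separate mice.

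The 9 genes, the marker and pathway lists and the tests were chosen with earlier results of these data known. All 9 genes were named in every comparison. Of each list, up to 3 called genes with the lowest p were named, or the 1 with the lowest p; some of these are not reported here. Genes like Lpl were the 3 with the highest r in each tissue, and for the other genes the 2 in the tissue of highest level. Alternatives were a pseudocount of 0.1 or 1, no filter, TPM, voom, sample quality weights, all 3 arms in 1 fit, the mouse as a block and leaving out each mouse. The fits without 2 control livers and with adipocyte markers as a covariate were chosen after seeing the data.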

Additional observations from a re-analysis of the deposited data

Results flagged for a closer look

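Of 81 groups of 4 to 6 libraries examined, 5 held a library far from the others of its group, where chance gives about 1 in 20 groups. Gpihbp1 was at 18.3 FPKM in the muscle of control mouse 802. Angptl4 was at 0.991 FPKM in the muscle of roxadustat mouse 767, the library with the highest adipocyte marker sum of its group, 137 FPKM. Apoe was at 29227 FPKM in the liver of PCOS vehicle mouse 773. Lrp1 was at 33.1 FPKM in the liver of roxadustat mouse 795, and Cd36 at 81.5 FPKM in the muscle of the same mouse. Of 54 differences between tissues tested, 0 were called by limma.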

How the results depend on the processing

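No called value changed sign under any alternative run. Between arms the 9 genes had 1341 alternative values, of which 16 gained a call, and 85 uncalled values changed sign. Between tissues of control mice 1 of 351 values lost its call, Lmf1 under TPM. For differences between tissues 3 of 972 gained one.

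The number of the 9 genes called, 0 in each case, became 1 for PCOS against control in WAT with sample quality weights (Cd36). For roxadustat against control in WAT it became 4 after TPM rescaling (Lpl, Vldlr, Lrp1, Cd36), 4 with weights (the same 4 genes), 1 with voom (Cd36) and 0 to 4 when 1 mouse was left out, the 4 without mouse 764 (Gpihbp1, Vldlr, Lrp1, Cd36). It became 0 to 1 when 1 mouse was left out for roxadustat against control in liver (Vldlr without mouse 808) and in muscle (Cd36 without mouse 795). For the PCOS effect it became 1 for WAT minus liver under TPM and under weights, and 1 for WAT minus muscle under weights, each time Cd36. The cause was not tested. With the mouse as a replicate block no call of the 9 genes changed, and 8297, 10213 and 10277 genes were called between tissues of control mice. No paired analysis was possible between arms because no mouse is in 2 arms.

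Counts over all genes moved more. For PCOS against control they were 115 in liver (21 with all 3 arms in 1 fit), 14 in muscle (5 without a filter, 27 with weights) and 54 in WAT (10 without a filter, 940 with weights, 11 without mouse 802 and 330 without mouse 785). For roxadustat against control they were 0 in liver (157 without mouse 808, 16 with weights) and 47 in muscle (16 without a filter, 17 without mouse 804). In WAT they were 897 (14 with the adipocyte covariate, 61 with all 3 arms in 1 fit, 3695 under TPM, 100 without mouse 809 and 1771 without mouse 764). In WAT the TPM calls for roxadustat against control were 3398 higher and 297 lower, beside 486 and 411, and for PCOS against control 33 and 20, beside 14 and 40. For the PCOS effect they were 124 for WAT minus liver (30 with voom, 633 with weights), 25 for WAT minus muscle (4 and 687) and 76 for liver minus muscle (20 with voom). Few reads limit Angptl4 in muscle and Vldlr in liver.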
